A study of Homo sapiens with 18 samples.

Results

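The comparison described here is the early response to transforming growth factor β (TGFβ) in A549 cells in which the atypical protein kinases C (PKC) were silenced. It set 3 arrays of siPKCiz cells collected 8 h after the start of TGFβ exposure against 3 arrays of untreated siPKCiz cells, 6 of the 18 arrays in the series, chosen by their labels alone. A549 is an established line from a human lung adenocarcinoma. siPKCiz cells carried siRNA against both atypical isoforms, PKCiota and PKCzeta, and siControl cells carried a control siRNA. Cells grown in 10% serum were starved, and the treated ones met 250 pM TGFβ during 1 h. After a wash they stayed in 0.2% serum for 7 h more. No collection time is labelled for untreated cells. The groups used were siPKCiz with TGFβ at 8 h, siPKCiz with TGFβ at 24 h and untreated siPKCiz, and, for the other arm, siControl with TGFβ at 8 h and untreated siControl. Each had 3 arrays labelled biological replicates, and nothing in the labels says whether these were separate transfections. Each p-value of the main fit sets a difference against the spread between arrays within groups. That spread was taken over all 18 arrays, those of siControl with TGFβ at 24 h included. Values are RMA intensity from whole-transcript expression arrays, on a linear scale as deposited, and all 18377 genes with 1 gene symbol were tested.

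TGFβ binds a complex of type I and type II receptor kinases, which phosphorylates SMAD2 and SMAD3. These join SMAD4 and enter the nucleus, where they act on transcription with partners such as AP-1, and among their first products are inhibitors of the same pathway. In epithelial cells the programme can end in an epithelial to mesenchymal transition, in which E-cadherin is lost and matrix and cytoskeletal genes rise. The atypical PKCs work with PAR6 and PAR3 in the polarity complex that sets up tight junctions, and PAR6 is itself a target of the type II TGFβ receptor.

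The silenced genes were read first. PRKCI, which encodes PKCiota, stood at 583, 621 and 554 in siPKCiz cells with TGFβ and at 513, 504 and 479 in untreated siPKCiz cells, while the siControl arrays gave 2804, 2818 and 2545 with TGFβ and 2469, 2163 and 2095 without. Every siPKCiz array thus lay below every siControl array. PRKCZ, which encodes PKCzeta, gave 254, 153 and 152.5 with TGFβ and 242, 142 and 162 untreated in siPKCiz cells, against 309, 410.2 and 410.2 and 265, 398 and 490.0 in siControl cells. In siPKCiz cells replicate 1 had the highest PRKCZ value of both groups, close to the lowest siControl array. Between TGFβ-treated and untreated siPKCiz cells neither gene passed the test, with log2 changes of 0.23 ± 0.090 for PRKCI (adjusted p = 0.159) and 0.029 ± 0.24 for PRKCZ (adjusted p = 0.973). The sign of the PRKCZ value turned when single arrays were left out.

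Replicate 1 stood apart from replicates 2 and 3 in all 6 groups, siControl included: log2 values of replicate 1 correlated with those of its own group at 0.992 to 0.995, and replicates 2 and 3 with each other at 0.996 to 0.998. Of the 15 genes that rose most, TGFβ replicate 1 was the highest TGFβ array in 14, and of the 15 that fell most it was the lowest in 14. Among all genes that rose it was the highest in 68.5%, and among all that fell it was the lowest in 66.2%. Without replicate number 1 in any group, the median change of the 15 strongest risers moved to 1.53 log2 units, against 1.76 with it, and that of the 15 strongest fallers to -1.24, against -1.46. All 30 kept their direction and passed the test without it. Of the 30 calls 6 ended without replicate number 2 in any group, and 6 without number 3. The cells were checked against fixed markers. All 8 markers of the A549 line, among them KRT8, KRT18, EPCAM and NQO1, were above the array median on all 6 arrays, as was 1 of 10 leukocyte markers (CD68), 1 of 6 alveolar type 2 markers (ABCA3), 0 of 10 fibroblast markers and 0 of 9 endothelial markers. The arrays held bulk RNA, so fewer cells of a type and less RNA per cell cannot be told apart.

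TGFβ changed 1191 genes in siPKCiz cells at 8 h, 6.48% of those tested. Of these, 575 rose (3.13%) and 616 fell (3.35%) at a Benjamini-Hochberg adjusted p under 0.05 in limma. Changes of at least 2-fold were fewer, 61 higher (0.332%) and 45 lower (0.245%). The 3 TGFβ arrays and the 3 untreated arrays did not overlap in 2222 genes that were higher (12.1%) and 2380 that were lower (13.0%), and in 1184 of the genes called (6.44% of all). Throughout, a change is a difference of mean log2 intensity, TGFβ minus untreated, and ± is its standard error from the fit (n = 3 arrays a group). The median change of all genes was -0.0003 log2 units. The count depended on which arrays entered. It was 668 without TGFβ replicate 1, 691 without untreated replicate 1 and 804 to 1078 without each of the other 4 arrays in turn. With a replicate number left out of every group it was 1123 without number 1, 357 without number 2 and 323 without number 3.

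**Figure D1:**
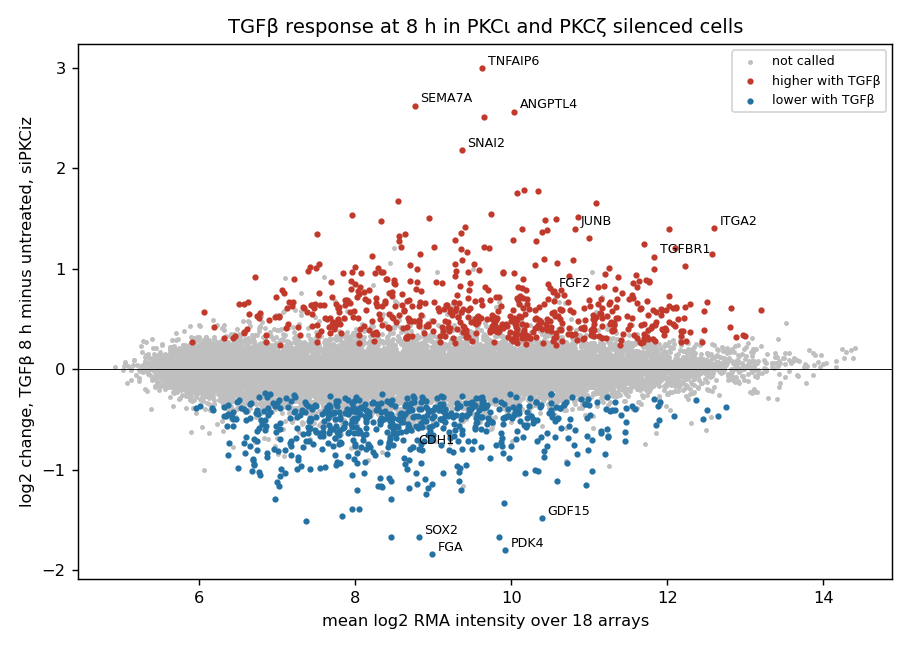
Change of each tested gene in siPKCiz cells (log2 intensity, TGFβ at 8 h minus untreated, vertical axis) against its mean log2 intensity over the 18 arrays (horizontal axis). Each point is 1 gene, with the 575 genes called higher in red and the 616 called lower in blue; TNFAIP6 at 3.00 and FGA at -1.84 lie at the ends.

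The strongest riser was TNFAIP6, which encodes a secreted hyaluronan-binding protein that crosslinks matrix. It read 1523.5, 696 and 733 in TGFβ-treated siPKCiz cells, against 112.5, 116 and 117 in untreated siPKCiz cells. The TGFβ arrays lay far above the untreated ones, with replicate 1 above the sum of the other two, and the change was 3.00 ± 0.45 (7.98-fold, adjusted p = 0.000436). SEMA7A, a semaphorin held on the membrane that signals through integrins, read 848, 578 and 588 in TGFβ-treated siPKCiz cells, against 100.4, 110.5 and 112 in untreated siPKCiz cells, a change of 2.62 ± 0.27 (adjusted p = 1.65e-05). ANGPTL4, a secreted inhibitor of lipoprotein lipase, read 3628, 1536 and 1777.5 in TGFβ-treated siPKCiz cells, against 371, 369 and 350.1 in untreated siPKCiz cells. Its groups were likewise far apart, and its change was 2.56 ± 0.37 (adjusted p = 0.000326). LCE3D, a late cornified envelope gene of skin, read 1081, 652 and 697 in TGFβ-treated siPKCiz cells, against 114, 149.9 and 154.5 in untreated siPKCiz cells, a change of 2.51 ± 0.27 (adjusted p = 2.1e-05). SNAI2, which encodes the E-cadherin repressor SLUG, read 1211, 801 and 968 in TGFβ-treated siPKCiz cells, against 241, 212 and 198 in untreated siPKCiz cells, and its change of 2.18 ± 0.18 (adjusted p = 3.52e-06) was 4.53-fold.

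The other strong risers spanned membrane, matrix and contractile genes. GXYLT2, a xylosyltransferase that acts on O-glucosylated EGF repeats such as those of Notch, changed by 1.78 ± 0.26 (adjusted p = 0.000377). SLN, which encodes sarcolipin, an inhibitor of the calcium pump of the sarcoplasmic reticulum, read 1703, 1134 and 1081 in TGFβ-treated siPKCiz cells, against 357, 367.5 and 401 in untreated siPKCiz cells, a change of 1.77 ± 0.27 (adjusted p = 0.000535). MARCHF4, a membrane-bound ubiquitin ligase, read 1453.5, 1334 and 1157 in TGFβ-treated siPKCiz cells, against 336, 447 and 387 in untreated siPKCiz cells; its 3 TGFβ arrays were close together and the change was 1.76 ± 0.15 (adjusted p = 3.52e-06). CHRNA9, a nicotinic acetylcholine receptor subunit, changed by 1.68 ± 0.17 (adjusted p = 1.43e-05). ADAM19, a membrane metalloprotease, changed by 1.66 ± 0.16 (adjusted p = 7.69e-06), and the focal adhesion protein TNS1 by 1.55 ± 0.19 (adjusted p = 7.48e-05). The interstitial collagenase MMP1 read 233, 182 and 332 in TGFβ-treated siPKCiz cells, against 93.5, 66.8 and 92.2 in untreated siPKCiz cells, with TGFβ replicate 3 the highest, a change of 1.54 ± 0.30 (adjusted p = 0.00363). NIPAL4, a magnesium transporter of the epidermis, read 2672, 2353 and 2324 in TGFβ-treated siPKCiz cells, against 860.1, 860.0 and 852 in untreated siPKCiz cells, a change of 1.51 ± 0.15 (adjusted p = 1.15e-05) with narrow spread in both groups. TAGLN, an actin-binding protein of smooth muscle, changed by 1.51 ± 0.18 (adjusted p = 6.87e-05), and the gelatinase MMP2 by 1.49 ± 0.27 (adjusted p = 0.00162).

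The strongest fallers included plasma protein, epithelial and metabolic genes. FGA, the fibrinogen alpha chain, read 374, 617 and 683 in TGFβ-treated siPKCiz cells, against 1545, 2174 and 2169.9 in untreated siPKCiz cells. Every TGFβ array was below every untreated one, and the change was -1.84 ± 0.30 (3.59-fold lower, adjusted p = 0.000859). PDK4, a kinase that shuts pyruvate out of the mitochondrial citrate cycle, read 458, 823 and 1102 in TGFβ-treated siPKCiz cells, against 2305, 2443 and 3122 in untreated siPKCiz cells, with TGFβ replicate 1 the lowest, a change of -1.80 ± 0.32 (adjusted p = 0.00169). SOX2, a transcription factor of airway and stem cells, read 175, 314 and 474 in TGFβ-treated siPKCiz cells, against 867, 927 and 1050.4 in untreated siPKCiz cells, a change of -1.67 ± 0.39 (adjusted p = 0.0125). The SOX2 call ended without TGFβ replicate 1 (-1.29, adjusted p = 0.0914) and without untreated replicate 3 (-1.60, adjusted p = 0.0521). ST8SIA4, a polysialyltransferase, read 208, 217 and 294 in TGFβ-treated siPKCiz cells, against 682, 788 and 794 in untreated siPKCiz cells. Its groups were tight, with a change of -1.67 ± 0.15 (adjusted p = 4.97e-06). TM4SF20, a tetraspan membrane protein, changed by -1.67 ± 0.23 (adjusted p = 0.000257).

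EHF, an epithelial ETS factor, read 87.5, 129.8 and 128 in TGFβ-treated siPKCiz cells, against 609, 220.4 and 251 in untreated siPKCiz cells, a change of -1.51 ± 0.30 (adjusted p = 0.00403) in which untreated replicate 1 was well above the other untreated arrays. GDF15, a stress-induced cytokine of the TGFβ superfamily, read 734, 1846 and 2161.5 in TGFβ-treated siPKCiz cells, against 4501.5, 3654 and 3897 in untreated siPKCiz cells, a change of -1.48 ± 0.32 (adjusted p = 0.00641). ANXA13, an annexin of intestinal epithelium, changed by -1.46 ± 0.21 (adjusted p = 0.000361), and SLC51B, a subunit of the basolateral bile acid exporter, by -1.39 ± 0.22 (adjusted p = 0.000717). CYP4F3, which inactivates leukotriene B4, read 256, 319 and 349 in TGFβ-treated siPKCiz cells, against 816, 799 and 782 in untreated siPKCiz cells; both groups were narrow, and the change was -1.39 ± 0.18 (adjusted p = 0.000128). FGB, the fibrinogen beta chain, changed by -1.33 ± 0.28 (adjusted p = 0.00562). TNFSF10, the death ligand TRAIL, read 74.6, 107 and 115 in TGFβ-treated siPKCiz cells, against 445, 176 and 171 in untreated siPKCiz cells, and its change of -1.29 ± 0.28 (adjusted p = 0.0074) leaned on replicate 1. It was -1.10 without TGFβ replicate 1 (adjusted p = 0.0533) and -0.84 without untreated replicate 1. BMP4, a bone morphogenetic protein ligand, changed by -1.29 ± 0.16 (adjusted p = 8.3e-05). BAAT, the enzyme that joins bile acids to glycine or taurine, changed by -1.24 ± 0.29 (adjusted p = 0.011, and -1.15 without TGFβ replicate 1, adjusted p = 0.0582), and BCAS1 by -1.20 ± 0.22 (adjusted p = 0.00231).

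**Figure D2:**
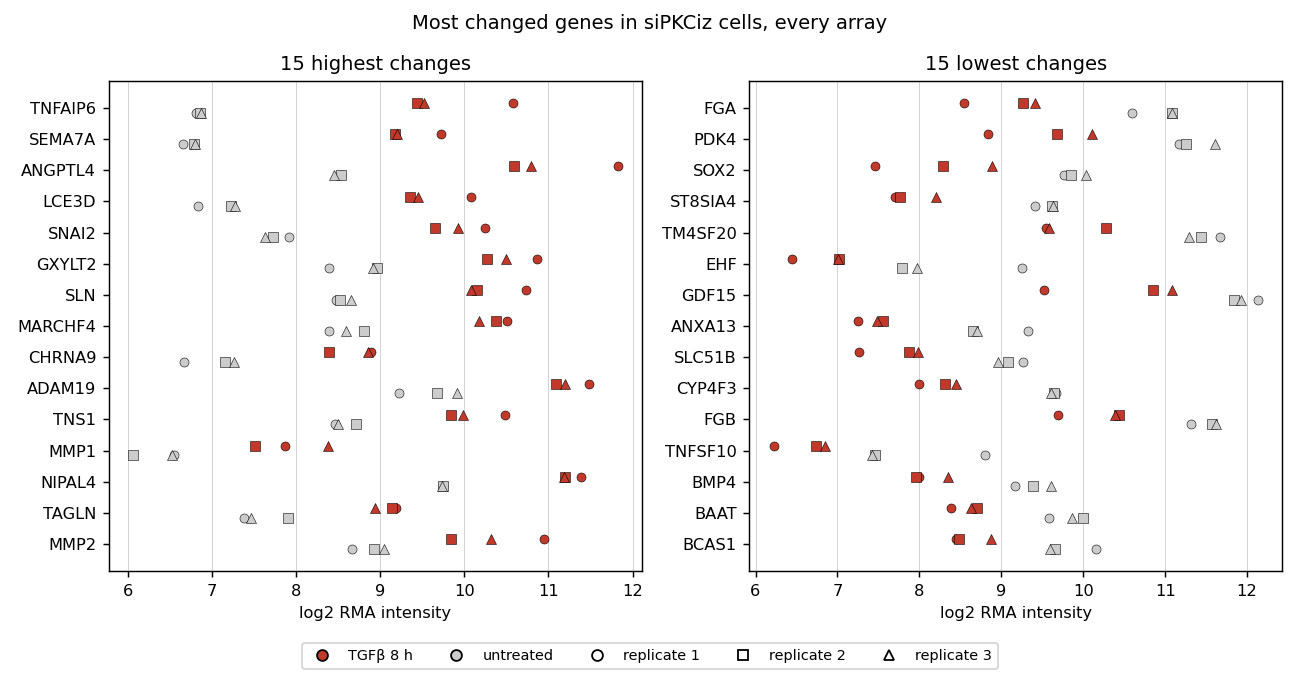
Log2 RMA intensity on each array for the 15 genes that rose most (left panel) and the 15 that fell most (right panel) in siPKCiz cells, with TGFβ 8 h arrays in red drawn just above untreated arrays in grey and symbols for the replicate number. The groups do not overlap in any of the 30 genes, which the choice of genes required, and TGFβ replicate 1 is the outermost TGFβ array in 28 of them.

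In the TGFβ pathway itself, some genes for ligands and latent complexes, the type I receptor TGFBR1 and the inhibitors SMAD7, SMURF2, PMEPA1 and SKIL rose, while the type II receptor TGFBR2 and betaglycan fell. Of 17 ligands, latent binding proteins and ligand antagonists, 8 rose and 1 fell, with a median change of 0.39. For this and every later list, the shares over all genes tested were 3.13% higher and 3.35% lower. No list was tested against these shares. LTBP2, a matrix protein related to the latent TGFβ binding proteins, read 1103, 753 and 736 in TGFβ-treated siPKCiz cells, against 365, 482 and 447 in untreated siPKCiz cells, a change of 0.99 ± 0.19 (adjusted p = 0.00324). The activin antagonists FSTL3 and FST changed by 0.81 ± 0.16 (adjusted p = 0.00319) and by 0.79 ± 0.17 (adjusted p = 0.00857). In FST replicate 1 was the lowest of the TGFβ arrays, and its call ended without TGFβ replicate 3 (0.64, adjusted p = 0.0507). THBS1, thrombospondin 1, which can release TGFβ from its latent complex, changed by 0.67 ± 0.16 (adjusted p = 0.0163, and 0.52 without TGFβ replicate 1, adjusted p = 0.117). Without TGFβ replicate 1 the 8 risers of this list became 4, and 5 without TGFβ replicate 3 or untreated replicate 1. They became 3 with replicate number 2 left out of every group and 0 with number 3 left out.

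Of 12 receptors 3 rose (TGFBR1, BMPR2 and ACVR1) and 3 fell (TGFBR3, TGFBR2 and BMPR1B), so type I and type II receptors stood on both sides. TGFBR1, the type I TGFβ receptor kinase, read 4056, 3351 and 3148 in TGFβ-treated siPKCiz cells, against 1943, 1449.6 and 1479 in untreated siPKCiz cells, a change of 1.12 ± 0.15 (adjusted p = 0.000209). TGFBR2, the type II receptor that binds ligand first, read 1619, 1557.5 and 1665 in TGFβ-treated siPKCiz cells, against 2858, 2492.5 and 2336 in untreated siPKCiz cells, a change of -0.66 ± 0.11 (adjusted p = 0.00129). The groups of both were clearly apart, in opposite directions. TGFBR3, betaglycan, a coreceptor that presents ligand, read 218, 289.5 and 252 in TGFβ-treated siPKCiz cells, against 479, 639 and 587 in untreated siPKCiz cells, a change of -1.17 ± 0.23 (adjusted p = 0.00371), and BMPR2, the type II BMP receptor, read 6476, 4517 and 4209 in TGFβ-treated siPKCiz cells, against 2674, 2288 and 2353 in untreated siPKCiz cells, a change of 1.03 ± 0.19 (adjusted p = 0.00182).

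Of 19 SMADs and pathway inhibitors 6 rose and 1 fell, with a median of 0.11. SMAD7, the inhibitory SMAD that brings ubiquitin ligases to the receptor, read 458.5, 385 and 367 in TGFβ-treated siPKCiz cells, against 216.5, 210.1 and 189.7 in untreated siPKCiz cells, a change of 0.97 ± 0.15 (1.96-fold, adjusted p = 0.000454). SMURF2, one of those ligases, read 4299.6, 4016 and 3623 in TGFβ-treated siPKCiz cells, against 2014, 1973 and 1959.9 in untreated siPKCiz cells, a change of 1.00 ± 0.11 (adjusted p = 3.23e-05) with little spread. PMEPA1, which keeps SMAD2 and SMAD3 from the receptor, read 7003, 4905 and 5183.5 in TGFβ-treated siPKCiz cells, against 2748.5, 2273 and 2314 in untreated siPKCiz cells, a change of 1.21 ± 0.15 (adjusted p = 0.000106). SKIL, the nuclear SMAD corepressor SnoN, read 4616, 3191.5 and 3665.5 in TGFβ-treated siPKCiz cells, against 2213, 1959.9 and 1986 in untreated siPKCiz cells, a change of 0.88 ± 0.14 (adjusted p = 0.000844). In all 4 the TGFβ arrays lay above the untreated ones. The faller was BAMBI, a decoy receptor (-0.39 ± 0.11, adjusted p = 0.0414), and its call ended without replicate 2 or 3 of either group; 12 of the 19 were not called.

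**Figure D3:**
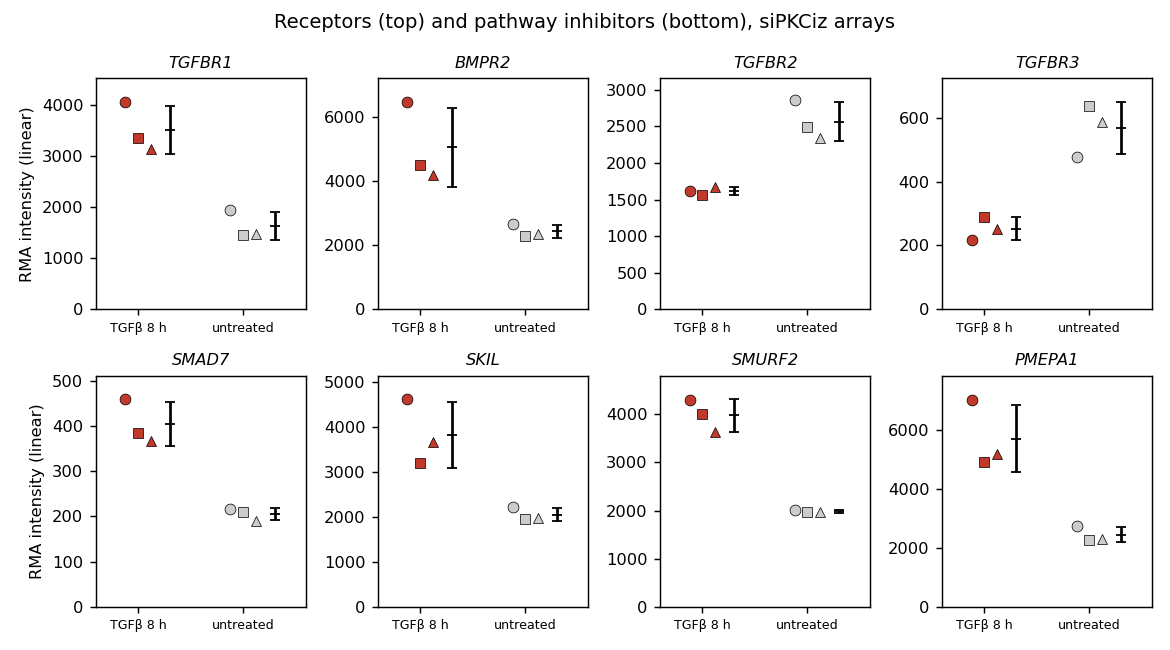
RMA intensity (linear axis from 0) on each siPKCiz array for 4 receptors (top row) and 4 pathway inhibitors (bottom row), TGFβ 8 h left of untreated, with bars for mean and SD (n = 3) and symbols for the replicate number (circle 1, square 2, triangle 3). TGFBR1, BMPR2 and the 4 inhibitors were higher with TGFβ and TGFBR2 and TGFBR3 lower, with no overlap between groups.

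Of 31 measured early TGFβ target genes 20 rose and 0 fell, with a median change of 0.63, the highest median of the lists. JUNB, an AP-1 subunit, read 2785.5, 2225 and 2475.5 in TGFβ-treated siPKCiz cells, against 1313, 747 and 853 in untreated siPKCiz cells, a change of 1.40 ± 0.19 (adjusted p = 0.000194). TAGLN, SNAI2 and ANGPTL4, described above, belong to the same list. Its 20 risers became 16 without TGFβ replicate 1. They became 15 with replicate number 2 left out of every group and 9 with number 3 left out. Of 18 BMP ligands, antagonists and ID genes 6 rose and 2 fell. BMP4 fell to 255, 249.8 and 325 in TGFβ-treated siPKCiz cells, against 577, 671 and 777 in untreated siPKCiz cells. The BMP antagonist GREM1 read 2139, 2536 and 2863 in TGFβ-treated siPKCiz cells, against 1337, 1575 and 1738 in untreated siPKCiz cells, a change of 0.70 ± 0.13 (adjusted p = 0.00234). NOG, another antagonist, changed by 0.79 ± 0.17 (adjusted p = 0.00709, and 0.58 without TGFβ replicate 1, adjusted p = 0.0529). ATOH8, a helix-loop-helix factor, changed by -0.47 ± 0.082 (adjusted p = 0.00149). The 6 risers of the BMP list became 2 without TGFβ replicate 1, and 3 or 4 without each of the other arrays in turn. They became 0 with replicate number 2 left out of every group, and 0 with number 3 left out.

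Among transcription factors linked to the loss of epithelial character, 3 of 15 rose and 1 fell, with a median of 0.13. SNAI1, the E-cadherin repressor SNAIL, read 674, 543 and 586 in TGFβ-treated siPKCiz cells, against 226, 234 and 247.5 in untreated siPKCiz cells. The groups were far apart and the change was 1.34 ± 0.18 (adjusted p = 0.000149). ETS1 changed by 0.48 ± 0.11 (adjusted p = 0.00799) and TWIST1 by -0.41 ± 0.089 (adjusted p = 0.00705), and each of these calls ended without a single array (0.41 without TGFβ replicate 2, adjusted p = 0.0506 for ETS1, and -0.35 without TGFβ replicate 1, adjusted p = 0.0541 for TWIST1). ETS1 is an activator of matrix protease genes, and TWIST1 a helix-loop-helix factor of mesoderm.

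Of 30 epithelial markers 4 rose and 4 fell, with a median of -0.048. CDH1, which encodes E-cadherin, read 469, 483 and 503 in TGFβ-treated siPKCiz cells, against 930.5, 851 and 719.7 in untreated siPKCiz cells, a change of -0.77 ± 0.17 (adjusted p = 0.00806). The TGFβ arrays were close together and all below the untreated ones, though the call ended without untreated replicate 1 (-0.69 without untreated replicate 1, adjusted p = 0.0518). CLDN2, a pore-forming claudin, changed by -0.54 ± 0.10 (adjusted p = 0.0016). In the other direction, CLDN4, a sealing claudin, read 358, 296 and 249.7 in TGFβ-treated siPKCiz cells, against 186, 134 and 128 in untreated siPKCiz cells, a change of 1.01 ± 0.20 (adjusted p = 0.00297), and the desmosomal cadherin DSC2 changed by 0.58 ± 0.10 (adjusted p = 0.000951). Without untreated replicate 1 the 4 fallers became 2. They became 0 with replicate number 2 left out of every group and 2 with number 3 left out.

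Of 18 mesenchymal markers 8 rose and 0 fell, with a median of 0.41. CDH2, N-cadherin, read 4249.6, 4127 and 4001 in TGFβ-treated siPKCiz cells, against 2898, 3283.5 and 3117 in untreated siPKCiz cells, a change of 0.41 ± 0.072 (adjusted p = 0.00146). VIM, the intermediate filament protein vimentin, read 6217, 6507 and 6273 in TGFβ-treated siPKCiz cells, against 4446, 4873 and 5210.5 in untreated siPKCiz cells, a change of 0.39 ± 0.11 (adjusted p = 0.0352), and its call ended in 5 of the 6 fits that left out 1 array, with adjusted p up to 0.173. FN1, fibronectin, read 5408, 4376 and 4948 in TGFβ-treated siPKCiz cells, against 4753, 4949 and 5104 in untreated siPKCiz cells. Its arrays overlapped, and its change was -0.012 ± 0.13 (adjusted p = 0.98), with a 95% interval of -0.29 to 0.26. SERPINE2, a protease inhibitor, changed by 0.82 ± 0.13 (adjusted p = 0.000822).

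Of 36 collagens, laminins and other matrix genes 10 rose and 0 fell, with a median of 0.15, and the 10 became 6 without untreated replicate 1. They became 5 with replicate number 2 left out of every group and 3 with number 3 left out. COL4A1 read 938, 648 and 643 in TGFβ-treated siPKCiz cells, against 232, 334 and 264 in untreated siPKCiz cells, a change of 1.42 ± 0.19 (adjusted p = 0.000177), and its neighbour COL4A2, the other chain of type IV collagen, changed by 0.81 ± 0.17 (adjusted p = 0.00519). COL1A1, the alpha 1 chain of type I collagen, read 881, 598 and 602 in TGFβ-treated siPKCiz cells, against 372, 385 and 318 in untreated siPKCiz cells, a change of 0.93 ± 0.17 (adjusted p = 0.00197). Of 25 matrix proteases and their inhibitors 10 rose and 0 fell, with a median of 0.27. MMP2, MMP1 and ADAM19 were among the strongest risers above. MMP10, stromelysin 2, read 171, 200.2 and 255 in TGFβ-treated siPKCiz cells, against 80.5, 71.9 and 90.8 in untreated siPKCiz cells, with TGFβ replicate 1 the lowest of its group, a change of 1.35 ± 0.16 (adjusted p = 5.16e-05).

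Integrins divided. Of 19, 4 rose and 1 fell (26.3% called, beside 6.48% of all genes tested). ITGA2, a subunit of the collagen receptor, read 7113, 6947 and 7282 in TGFβ-treated siPKCiz cells, against 3016, 2322 and 2767 in untreated siPKCiz cells, a change of 1.41 ± 0.15 (adjusted p = 1.67e-05). ITGA5, a subunit of the fibronectin receptor, changed by 0.89 ± 0.11 (adjusted p = 0.0001), and ITGB3 by 0.96 ± 0.16 (adjusted p = 0.0012). ITGB8, whose heterodimer with the alpha v chain binds latent TGFβ, read 100.3, 135.5 and 127.5 in TGFβ-treated siPKCiz cells, against 333, 221 and 214 in untreated siPKCiz cells, a change of -1.06 ± 0.15 (adjusted p = 0.000319). Of 27 actin cytoskeleton and contractile genes 14 rose and 0 fell, with a median of 0.31. CNN1, calponin of smooth muscle, changed by 1.01 ± 0.17 (adjusted p = 0.00132). DAAM1, a formin that nucleates actin, read 778, 794 and 759 in TGFβ-treated siPKCiz cells, against 377, 419 and 387.5 in untreated siPKCiz cells, a change of 0.98 ± 0.088 (adjusted p = 4.97e-06).

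AP-1, a dimer of JUN and FOS family proteins, is a partner of SMADs at many target genes. Of 19 immediate early and AP-1 factors 5 rose and 1 fell, with a median of 0.19. JUN read 1959, 1909 and 1729 in TGFβ-treated siPKCiz cells, against 872, 742 and 700.4 in untreated siPKCiz cells, a change of 1.28 ± 0.14 (adjusted p = 2.37e-05). FOSB, its partner, read 156, 163 and 151 in TGFβ-treated siPKCiz cells, against 99.4, 98.4 and 87.4 in untreated siPKCiz cells, a change of 0.72 ± 0.093 (adjusted p = 0.000109). The orphan receptor NR4A2 was the member that fell, with a change of -1.18 ± 0.30 (adjusted p = 0.0233, and -0.84 without TGFβ replicate 1, adjusted p = 0.165). IL11, a cytokine of the interleukin 6 family, read 1632, 1352 and 1638 in TGFβ-treated siPKCiz cells, against 586, 503 and 686 in untreated siPKCiz cells, a change of 1.39 ± 0.13 (adjusted p = 4.97e-06).

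The bases before the start sites of 4 risers are shown because 3 of them hold the AP-1 letters TGANTCA and the fourth, CCN2, holds 3 copies of the TEAD letters GGAATG. Each is the 250 bases upstream of the RefSeq start (GRCh38.p14), 5′ to 3′ on the gene's own strand, with the matched letters in capitals, at chr2:151357342-151357591 (plus strand) for TNFAIP6, chr19:55370464-55370713 (minus) for IL11, chr11:102780629-102780878 (minus) for MMP10 and chr6:131951373-131951622 (minus) for CCN2.
TNFAIP6: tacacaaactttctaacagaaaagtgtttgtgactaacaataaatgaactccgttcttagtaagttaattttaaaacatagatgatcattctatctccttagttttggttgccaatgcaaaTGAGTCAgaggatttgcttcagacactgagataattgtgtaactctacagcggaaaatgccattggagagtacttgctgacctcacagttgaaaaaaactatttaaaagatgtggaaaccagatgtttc
IL11: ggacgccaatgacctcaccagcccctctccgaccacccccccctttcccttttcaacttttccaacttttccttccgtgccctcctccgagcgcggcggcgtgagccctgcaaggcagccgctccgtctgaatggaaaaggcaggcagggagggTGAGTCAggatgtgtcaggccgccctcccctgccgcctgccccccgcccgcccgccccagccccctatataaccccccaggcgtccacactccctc
MMP10: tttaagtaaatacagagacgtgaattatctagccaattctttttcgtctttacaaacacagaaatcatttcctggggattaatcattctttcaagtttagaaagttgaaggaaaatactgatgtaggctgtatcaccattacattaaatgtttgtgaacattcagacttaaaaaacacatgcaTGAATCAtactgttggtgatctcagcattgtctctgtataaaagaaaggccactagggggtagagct
CCN2: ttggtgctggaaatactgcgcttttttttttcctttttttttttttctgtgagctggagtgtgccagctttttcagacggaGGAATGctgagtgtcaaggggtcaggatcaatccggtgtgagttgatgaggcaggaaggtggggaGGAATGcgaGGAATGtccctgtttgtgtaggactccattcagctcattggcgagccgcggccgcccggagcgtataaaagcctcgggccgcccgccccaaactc

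The AP-1 letters began 129 bases before the start in TNFAIP6, 96 in IL11 and 67 in MMP10, and the TEAD letters 169, 104 and 95 bases before it in CCN2. Over windows of 250 bases before to 50 after the start, read on both strands for 14208 tested genes with a promoter in the table, the AP-1 letters were in 6.62% of the 438 genes that rose, 6.71% of the 477 that fell and 5.59% of all. The SMAD letters GTCTAGAC were in 0.228% of those that rose, 0.0% of those that fell and 0.141% of all. The TEAD letters GGAATG were in 11.0%, 12.4% and 11.6% of the same groups, the E-box CAGGTG to which SNAI1 and SNAI2 bind in 17.4%, 20.5% and 19.6%, and the NRF2 letters TGACNNNGC in 12.8%, 14.5% and 14.6%. NRF2 and AP-1 letters can overlap. The shares for genes that rose and genes that fell were close to those for all genes, and a match is a description of letters, not a bound site.

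Of 179 tested symbols of microRNA genes or their host genes 2 were called, both higher, a smaller share than the 6.48% of all genes tested. These were the host transcript MIR22HG (0.68 ± 0.14, adjusted p = 0.00464) and MIR31, both outside the naming rule and chosen after their values were seen. The MIR31 probe set, which reads the precursor or host transcript and not the mature arm, gave 266, 218.0 and 268 in TGFβ-treated siPKCiz cells, against 162, 128 and 205.5 in untreated siPKCiz cells, a change of 0.62 ± 0.17 (adjusted p = 0.0359). The mature 5p product (RefSeq, chr9:21512158-21512178, minus strand) is printed with its seed, bases 2 to 8, in capitals.
hsa-miR-31-5p: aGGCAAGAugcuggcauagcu

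Targets of YAP and TEAD, the transcription pair that reports on cell shape and tension, rose in 8 of 22 cases and fell in 0, with a median of 0.27. CCN2, connective tissue growth factor, read 3525, 2877.5 and 2816.5 in TGFβ-treated siPKCiz cells, against 1713, 1707 and 1849 in untreated siPKCiz cells, a change of 0.80 ± 0.18 (adjusted p = 0.0107, and 0.70 without TGFβ replicate 1, adjusted p = 0.0681). GADD45B, a stress sensor, changed by 0.87 ± 0.18 (adjusted p = 0.00602), tissue factor F3 by 0.65 ± 0.18 (adjusted p = 0.0291), and FSTL1, a secreted glycoprotein, by 0.51 ± 0.11 (adjusted p = 0.00624). The F3 and FSTL1 calls ended without a single array (0.50 without TGFβ replicate 1, adjusted p = 0.186, and 0.40 without untreated replicate 1, adjusted p = 0.0504). The 8 risers became 4 without TGFβ replicate 1 and 5 without untreated replicate 1. They became 1 with replicate number 2 left out of every group and 0 with number 3 left out.

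Of 23 growth factors and receptors 7 rose and 1 fell, with a median of 0.16. PDGFB, a platelet-derived growth factor chain, read 634, 358 and 407 in TGFβ-treated siPKCiz cells, against 201, 166 and 176 in untreated siPKCiz cells, a change of 1.33 ± 0.26 (adjusted p = 0.00324). FGF2 read 1910.2, 1991 and 1801 in TGFβ-treated siPKCiz cells, against 1125, 1114 and 1081 in untreated siPKCiz cells, a change of 0.78 ± 0.079 (adjusted p = 1.43e-05) with narrow groups. FGF1 changed by 0.92 ± 0.26 (adjusted p = 0.04), a call that ended without each of the 6 arrays in turn. ERBB3, the receptor for neuregulins, read 82.6, 108 and 103 in TGFβ-treated siPKCiz cells, against 259.8, 182 and 160.2 in untreated siPKCiz cells, a change of -1.02 ± 0.15 (adjusted p = 0.000468). Of 22 cytokines and chemokines 2 rose and 4 fell (27.3% called, beside 6.48% of all genes tested). CSF1, the macrophage growth factor, changed by -0.63 ± 0.11 (adjusted p = 0.00117), and the neutrophil chemokines CXCL1 and CXCL5 changed by -1.09 ± 0.27 (adjusted p = 0.0163) and by -0.89 ± 0.26 (adjusted p = 0.0467). The CXCL5 arrays overlapped between groups, and its change was -0.55 without TGFβ replicate 1, adjusted p = 0.295. The 4 fallers became 1 without TGFβ replicate 1 or 2, or untreated replicate 1 or 3. The 2 risers, IL11 and IL6, became 1 when any 1 of the 6 arrays other than TGFβ replicate 1 was left out.

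Of 16 genes listed as MAP kinase feedback 4 fell and 1 rose (31.2% called, beside 6.48% of all genes tested). The largest fall was that of MAP2K6, which activates p38 and is not a feedback inhibitor. MAP2K6, a kinase that activates p38, read 295, 407 and 456 in TGFβ-treated siPKCiz cells, against 835, 789.7 and 898 in untreated siPKCiz cells, a change of -1.15 ± 0.24 (adjusted p = 0.006). The inhibitors SPRY1, SPRY2 and DUSP6 changed by -0.80 ± 0.21 (adjusted p = 0.0272), by -0.42 ± 0.093 (adjusted p = 0.0082) and by -0.50 ± 0.14 (adjusted p = 0.0344), and the DUSP6 groups overlapped. Each of these 3 calls ended without a single array, with adjusted p up to 0.169, 0.0656 and 0.19 in the same order. The 4 fallers became 1 without TGFβ replicate 1 and 2 without untreated replicate 1 or 3. The riser, the phosphatase DUSP1 (0.33 ± 0.092, adjusted p = 0.0351), lost its call without replicate 2 or 3 of either group.

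In the Notch pathway 2 of 17 genes rose, the receptor NOTCH2 (0.46 ± 0.088, adjusted p = 0.00271) and the target HEY1 (0.34 ± 0.086, adjusted p = 0.0194), which was lost without single arrays (0.27 without untreated replicate 1, adjusted p = 0.129). In the Wnt pathway 1 of 25 rose, the ligand WNT5B (0.61 ± 0.16, adjusted p = 0.0256, and 0.50 without TGFβ replicate 1, adjusted p = 0.155), and 1 fell, the coreceptor LRP5 (-0.49 ± 0.11, adjusted p = 0.00704). Other PKC isoforms rose in 2 of 11 cases and fell in 0, the conventional isoform PRKCA (0.35 ± 0.078, adjusted p = 0.009) and the diacylglycerol-activated kinase PRKD3 (0.33 ± 0.093, adjusted p = 0.037), and neither call held in every fit without 1 array. Of 23 polarity partners of atypical PKC 1 rose, PAWR, which encodes an inhibitor of the atypical isoforms (0.27 ± 0.076, adjusted p = 0.0346), and 1 fell, PARD3, which encodes PAR3 (-0.25 ± 0.064, adjusted p = 0.0235). The PAWR call was lost in 5 and the PARD3 call in 4 of the 6 fits without 1 array. The called shares were 11.8% for Notch, 8.0% for Wnt, 18.2% for other PKC isoforms and 8.7% for polarity partners. Of all genes tested 6.48% were called, and the lists were not tested against that share.

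Members of the lists of mucous and intestinal-type genes and of liver-type plasma proteins were among the genes that fell. Of 22 mucous and intestinal-type genes 9 fell and 0 rose, with a median of -0.51, and of 20 liver-type plasma proteins 8 fell and 0 rose, with a median of -0.32. AGR2, a protein disulfide isomerase needed for mucin folding, read 1406, 1869 and 2828 in TGFβ-treated siPKCiz cells, against 3565, 4312.5 and 4910.0 in untreated siPKCiz cells, a change of -1.11 ± 0.26 (adjusted p = 0.0124, and -0.88 without TGFβ replicate 1, adjusted p = 0.0902). APOH, a plasma phospholipid-binding glycoprotein, read 341, 304 and 419 in TGFβ-treated siPKCiz cells, against 809.9, 774 and 787 in untreated siPKCiz cells, a change of -1.17 ± 0.19 (adjusted p = 0.000801). SOX2, TM4SF20 and ANXA13 of the first list and FGA, FGB and BAAT of the second were among the strongest fallers above. SOX2, a factor of airway and stem cells, is not a marker of differentiated mucous or intestinal cells. The 9 fallers of the mucous list became 5 without TGFβ replicate 1. With replicate number 2 left out of every group they became 5, and the 8 liver-type fallers became 1. With number 3 left out each of these lists had 4 fallers.

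NRF2 targets, which are active in A549 cells, fell in 6 of 22 cases and rose in 1, with a median of -0.26. That made 31.8% called, beside 6.48% of all genes tested. GCLC, the catalytic subunit of the first enzyme of glutathione synthesis, read 2805, 2929 and 2701 in TGFβ-treated siPKCiz cells, against 3855, 4202 and 4042 in untreated siPKCiz cells, a change of -0.52 ± 0.093 (adjusted p = 0.00162). OSGIN1, an oxidative stress gene, changed by -0.57 ± 0.10 (adjusted p = 0.00146), and the aldo-keto reductase AKR1C3 by -0.40 ± 0.10 (adjusted p = 0.0208, and -0.31 without untreated replicate 3, adjusted p = 0.132). HMOX1, heme oxygenase, was the member that rose, by 0.58 ± 0.14 (adjusted p = 0.02, and 0.45 without TGFβ replicate 1, adjusted p = 0.136). The 6 fallers became 2 without TGFβ replicate 2 or untreated replicate 3, and 3 without TGFβ replicate 1, TGFβ replicate 3 or untreated replicate 2. They became 1 with replicate number 2 left out of every group and 2 with number 3 left out.

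Of 20 sterol biosynthesis genes 4 fell and 0 rose, with a median of -0.18. These were TM7SF2, a sterol reductase (-0.64 ± 0.10, adjusted p = 0.000683), ACAT2, a thiolase that makes acetoacetyl coenzyme A (-0.47 ± 0.084, adjusted p = 0.00161), LSS, lanosterol synthase (-0.46 ± 0.12, adjusted p = 0.0241, and -0.40 without TGFβ replicate 1, adjusted p = 0.127), and EBP, a sterol isomerase (-0.41 ± 0.073, adjusted p = 0.00182). Of 21 genes of fatty acid and PPAR metabolism 2 rose and 4 fell (28.6% called). PPARA, a nuclear receptor for fatty acids, changed by -0.52 ± 0.10 (adjusted p = 0.00368), and GPCPD1, a glycerophosphocholine phosphodiesterase, by -1.20 ± 0.28 (adjusted p = 0.0111, and -0.92 without TGFβ replicate 1, adjusted p = 0.0843). The 2 risers, ANGPTL4 and PPARD, became 1 without untreated replicate 1, TGFβ replicate 2 or TGFβ replicate 3. Of 23 hypoxia and glycolysis genes 2 rose and 3 fell (21.7% called). NDRG1 read 1844, 1893 and 1816 in TGFβ-treated siPKCiz cells, against 1229, 1360.5 and 1189 in untreated siPKCiz cells, a change of 0.56 ± 0.066 (adjusted p = 5.26e-05), and ALDOC, an aldolase, read 295, 347 and 369.8 in TGFβ-treated siPKCiz cells, against 621, 606 and 637 in untreated siPKCiz cells, a change of -0.89 ± 0.14 (adjusted p = 0.000535). The peptide hormone ADM (-0.46 ± 0.11, adjusted p = 0.017, and -0.42 without TGFβ replicate 1, adjusted p = 0.0867) and the HIF prolyl hydroxylase EGLN3 (-0.44 ± 0.10, adjusted p = 0.0111, and -0.39 without TGFβ replicate 1, adjusted p = 0.0681) were the other fallers, and without TGFβ replicate 1 only 1 of the 3 was called.

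Several further lists had 0 to 2 called genes each, beside 6.48% of all genes tested. Of 28 interferon response genes 2 fell (7.14%), IFIT1, which binds foreign RNA, and IFIH1, which senses it. IFIT1 read 75.8, 78.7 and 85.3 in TGFβ-treated siPKCiz cells, against 151, 133 and 143 in untreated siPKCiz cells, a change of -0.83 ± 0.10 (adjusted p = 4.87e-05), and IFIH1 changed by -0.41 ± 0.095 (adjusted p = 0.0107, and -0.35 without TGFβ replicate 1, adjusted p = 0.0744). Of 16 p53 targets 1 rose, TP53I3 (0.69 ± 0.12, adjusted p = 0.00146), and 1 fell, GDF15, which made 12.5%. Of 36 cell cycle genes 1 fell (2.78%), the phosphatase CDC25B (-0.52 ± 0.12, adjusted p = 0.0135, and -0.44 without TGFβ replicate 1, adjusted p = 0.0874), and 0 rose, or 1 without TGFβ replicate 2. Of 20 genes of the unfolded protein and integrated stress response 0 were called, and the member with the largest change was CHAC1, at -0.81 ± 0.43 (adjusted p = 0.358), with arrays that overlapped and a change of -0.33 without TGFβ replicate 1, adjusted p = 0.893. Of 21 ribosomal protein genes 0 were called, the largest change being that of RPL27 (0.21 ± 0.085, adjusted p = 0.185).

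Keratins and cornified envelope genes had 2 risers, LCE3D and KRT7 (0.34 ± 0.080, adjusted p = 0.0136, and 0.31 without TGFβ replicate 1, adjusted p = 0.0744), and 1 faller, KRT19 (-0.40 ± 0.12, adjusted p = 0.0455, and -0.29 without TGFβ replicate 3, adjusted p = 0.194), among 22. Of 10 alveolar type 2 markers 0 were called, and SFTPD had the largest change (0.27 ± 0.12, adjusted p = 0.251, and 0.18 without TGFβ replicate 1, adjusted p = 0.699). For markers of other cell types, 1 of 10 leukocyte genes fell, CD14 (-0.60 ± 0.15, adjusted p = 0.0203, and -0.46 without untreated replicate 3, adjusted p = 0.129), 0 of 10 fibroblast genes were called, with LUM the farthest from 0 (-0.24 ± 0.14, adjusted p = 0.395, and -0.11 without TGFβ replicate 1, adjusted p = 0.887), and 1 of 9 endothelial genes rose, ESAM, a junction adhesion molecule (0.69 ± 0.16, adjusted p = 0.0116, and 0.56 without untreated replicate 1, adjusted p = 0.0824). Summed leukocyte marker intensity ranged from 1570.0 to 1663 in TGFβ-treated siPKCiz cells and from 1499.8 to 1555 in untreated siPKCiz cells, that of fibroblast markers from 1216 to 1321 and from 1199 to 1310.4 in the same order, that of endothelial markers from 1025 to 1148.5 and from 845 to 946.5, and that of 6 alveolar type 2 markers from 1251 to 1348 and from 1356 to 1374. Defining markers such as PTPRC, PECAM1 and DCN had mean intensities of 50.1, 71.2 and 65.7 in TGFβ-treated siPKCiz cells and 48.1, 68.5 and 59.0 in untreated siPKCiz cells, all under the array medians of 258.6 to 276 over tested genes. The endothelial and leukocyte sums were higher and the alveolar type 2 sums lower with TGFβ, in each case with no overlap. ESAM alone averaged 447 in TGFβ-treated siPKCiz cells and 278 in untreated siPKCiz cells. CD68, a leukocyte marker that passed no test (adjusted p = 0.299), averaged 866 and 720.4 in the same order, and ABCA3, an alveolar type 2 marker (adjusted p = 0.433), 757 and 834. The called shares were 13.6% for keratins and cornified envelope genes, 10.0% for leukocyte and 11.1% for endothelial markers, beside 6.48% of all genes. The part of other cell types in these results was not tested.

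**Figure D4:**
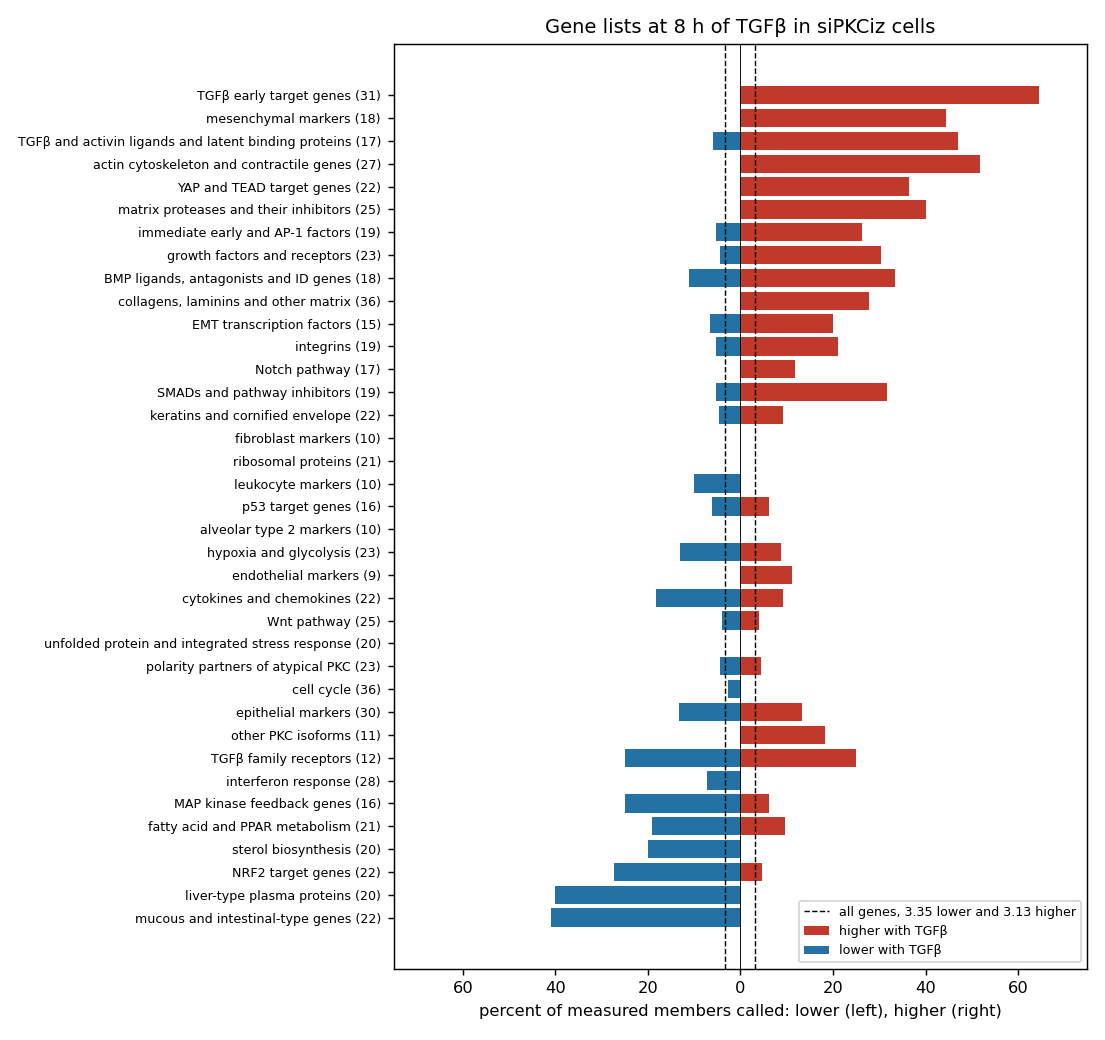
Percent of the measured members of each gene list shown called lower (blue, to the left) or higher (red, to the right) with TGFβ at 8 h in siPKCiz cells, with the number measured in brackets, lists ordered by their median change, and dashed lines at 3.35% and 3.13% for all genes. The early TGFβ targets stand at the top, with 20 of 31 higher, and the mucous and intestinal-type genes at the bottom, with 9 of 22 lower.

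The response was then set beside that of siControl cells at the same time. The siControl comparison had 2087 called genes (11.4%), 951 higher (5.17%) and 1136 lower (6.18%), and set siControl arrays against siControl arrays. All 18 arrays shared 1 estimate of each gene's spread, so the calls of the arms were not independent. Of the 575 genes that rose in siPKCiz cells 467 also rose in siControl cells, 81.2% of the siPKCiz genes and 49.1% of the siControl genes. Of the 616 that fell 473 also fell, 76.8% and 41.6% of the lists in the same order. No gene was called in opposite directions. Across 18377 genes, which are not independent replicates, the changes of the arms had a Pearson correlation of 0.815.

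The difference between the arms was tested for each gene as the siPKCiz change minus the siControl change. None of the 18377 genes passed an adjusted p under 0.05 in limma (0.0%), and 625 had an unadjusted p under 0.05 (3.4%), 243 with a higher (1.32%) and 382 with a lower (2.08%) change in siPKCiz cells. With a median standard error of 0.14 log2 units for this difference, a p that misses the threshold does not show that the arms responded alike. Without replicate number 1, which stood apart in both arms, 58 of the 18377 genes passed, 29 in each direction. Without number 2 the count was 0, and without number 3 it was 0. Of the 29 with a lower change 28 had a smaller absolute change in siPKCiz than in siControl cells, as did 25 of the 29 with a higher change. The 58 were selected by this same difference, and the share of smaller changes over all genes was not taken. These counts therefore do not show which arm responded more. When only the 12 arrays of the 4 groups entered the fit, 2 genes passed, ODAPH (-1.79, adjusted p = 0.0473) and MXD1 (-0.92, adjusted p = 0.0473). These and the next gene were named after their values were seen.

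ODAPH, an enamel matrix gene, gave 150.4, 84.5 and 92.7 in siPKCiz cells with TGFβ, against 66.1, 54.8 and 49.2 in untreated siPKCiz cells. In siControl cells it gave 349, 384 and 443 with TGFβ, against 63.6, 54.0 and 63.8 untreated. The TGFβ arrays of the arms did not overlap, and without replicate number 1 the difference was -2.04 (adjusted p = 1.97e-05). RASGRP3, a Ras exchange factor, gave 703, 344.5 and 431.5 in siPKCiz cells with TGFβ, against 128, 318 and 340.2 in untreated siPKCiz cells. Its siControl values were 1239, 976.5 and 994 with TGFβ, against 132, 200.1 and 239 untreated. In siPKCiz cells replicate 1 was the highest of the TGFβ arrays and the lowest of the untreated ones, and without that number in any group the difference was -1.94 (adjusted p = 1.97e-05).

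Of the 39 lists, 31 had fewer called members in siPKCiz than in siControl cells, 6 had as many and 2 had more. Over all genes tested 6.48% were called in siPKCiz and 11.4% in siControl cells, a gap that these list counts share. The lists also share members, with 778 distinct genes among 828 entries, so the counts are not separate results. By list, 20 of the 31 early TGFβ targets rose in siPKCiz cells and 23 in siControl cells, with medians of 0.63 and 0.95. Of the 20 sterol biosynthesis genes 4 fell in siPKCiz cells and 11 in siControl cells, with medians of -0.18 and -0.31. Of the 23 polarity partners of atypical PKC 1 fell in siPKCiz cells and 6 in siControl cells, with medians of -0.043 and -0.047. Other lists had the larger median change in siPKCiz cells. The mucous and intestinal-type genes had 9 fallers in siPKCiz cells and 10 in siControl cells, with medians of -0.51 and -0.33. The liver-type plasma proteins had 8 and 7 fallers in the same order, with medians of -0.32 and -0.23. The YAP and TEAD targets had 8 and 7 risers and 0 and 2 fallers, with medians of 0.27 and 0.19. In none of these lists did a member pass the test of the difference, and the lists as a whole were not tested.

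Among the genes named above, 10 of the 15 strongest risers and 7 of the 15 strongest fallers had a smaller absolute change in siPKCiz than in siControl cells, and 14 of each were also called there. Both sets were chosen for large siPKCiz changes, which favours that arm, so these counts do not show which arm responded more. SNAI1 changed by 1.34 ± 0.18 in siPKCiz cells and by 1.96 ± 0.18 in siControl cells, a difference of -0.61 ± 0.25 (unadjusted p = 0.0256). PDK4 changed by -1.80 ± 0.32 in siPKCiz cells and by -2.69 ± 0.32 in siControl cells, a difference of 0.89 ± 0.46 (unadjusted p = 0.0663). ITGA2 went the other way, with 1.41 ± 0.15 in siPKCiz cells and 0.62 ± 0.15 in siControl cells, a difference of 0.78 ± 0.21 (unadjusted p = 0.00137). Its untreated siPKCiz arrays, at 3016, 2322 and 2767, all lay below the untreated siControl arrays, at 6555, 5140.2 and 5795. ATOH8 changed by -0.47 ± 0.082 in siPKCiz cells and by -0.024 ± 0.082 in siControl cells (limma unadjusted p of the difference = 0.00123), IFIT1 by -0.83 ± 0.10 and -0.36 ± 0.10 in the same order (limma unadjusted p = 0.00266), and HMOX1 by 0.58 ± 0.14 and 1.17 ± 0.14 (limma unadjusted p = 0.00973). SMAD7 changed by 0.97 ± 0.15 in siPKCiz cells and by 0.98 ± 0.15 in siControl cells, a difference of -0.013 ± 0.21 with a 95% interval of -0.45 to 0.42. None of the differences in this paragraph passed an adjusted p under 0.05 in limma. The share of all genes with an unadjusted p under 0.05 was 3.4%, below the threshold itself, so these unadjusted p-values do not establish a difference between the arms.

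**Figure D5:**
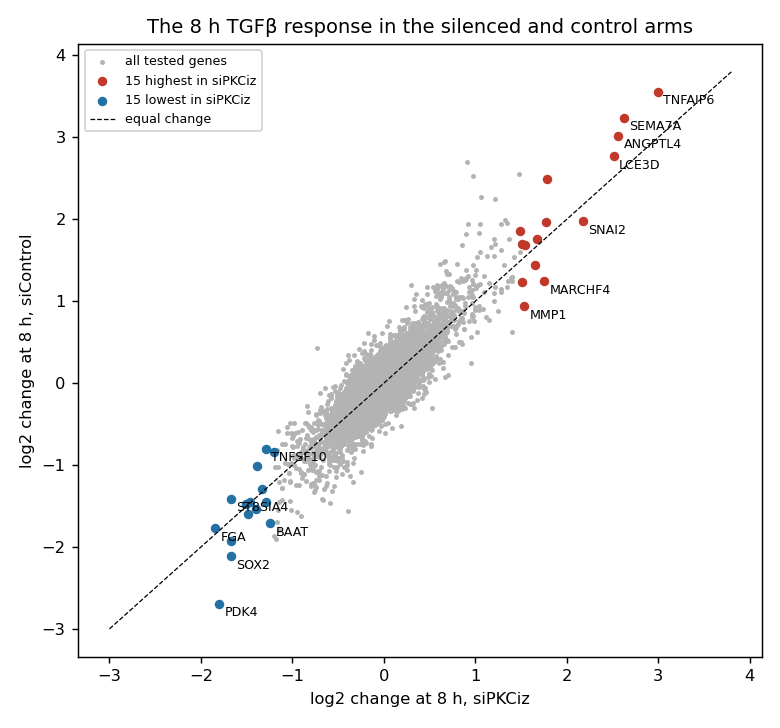
Change at 8 h (log2 intensity, TGFβ minus untreated) in siPKCiz cells on the horizontal axis against that in siControl cells on the vertical axis, 1 point a tested gene (n = 18377), with a dashed line at equal changes. The 15 strongest risers (red) and fallers (blue) in siPKCiz cells lie on both sides of the line, with PDK4 at -1.80 and -2.69 and MMP1 at 1.54 and 0.94. They were chosen by their siPKCiz changes, so their place about the line does not compare the arms.

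At 24 h, siPKCiz cells had 1974 genes called against the same untreated arrays (10.7%), 855 higher (4.65%) and 1119 lower (6.09%), so the 8 h and 24 h values share their reference and are given side by side. Of the 15 strongest risers at 8 h 15 were called higher at 24 h, and of the 15 strongest fallers 14 were called lower. SLN read 6452, 3231 and 3771 at 24 h, a change of 3.52 ± 0.27 against 1.77 ± 0.27 at 8 h. LCE3D changed by 3.96 ± 0.27 at 24 h and by 2.51 ± 0.27 at 8 h, and MMP2 by 2.68 ± 0.27 and 1.49 ± 0.27. ANGPTL4 changed by 1.65 ± 0.37 at 24 h and by 2.56 ± 0.37 at 8 h. BAAT, the faller not called at 24 h, gave 579.6, 866 and 786.5 there, a change of -0.30 ± 0.29 (adjusted p = 0.581). CDH1 changed by -1.37 ± 0.17 at 24 h and by -0.77 ± 0.17 at 8 h, and BCAS1 by -2.29 ± 0.22 and -1.20 ± 0.22. SMAD7 and JUN changed by 0.75 ± 0.15 and 0.77 ± 0.14 at 24 h, against 0.97 ± 0.15 and 1.28 ± 0.14 at 8 h. No test compared the times.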

How the data were processed

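RNA from A549 cells, 200 ng a sample, was hybridised to Affymetrix whole-transcript arrays per the labels, in 6 groups of 3. The deposited values are RMA intensity on a linear scale, made by the authors with RMA and Partek per the submitters' processing notes; versions are not given in the sources used here. RMA shares information between arrays and compresses the changes of dim genes.

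Log2 was taken once. Of 28869 probe sets, 19310 had 1 symbol, 1752 several and 7807 none listed; the brightest stood for a gene, which left out 933 and gave 18377 genes. limma 3.58.1 (R 4.3.3) fitted 6 group means over all 18 arrays with empirical Bayes moderation (12 residual, 18.1 total degrees of freedom), and calls used p-values adjusted by Benjamini-Hochberg over all 18377 genes, with a threshold of 0.05. Arrays have no read depth; 3 arrays a group limit the precision, with a median standard error of 0.10 log2 units for the change. The procedure was tested on simulated data.

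The 39 lists (776 of 828 members measured) and the members were chosen with earlier results of these data known. The result of 1 list is not reported here. The rule for naming took fixed marker genes, the 15 highest and 15 lowest changes among called genes with no overlap between the groups, up to 4 called members of each list with the largest change, and the largest change of a list with 0 called. No sample was left out. Alternatives were the replicate block, a filter on dim genes, array weights, quantile normalization, a 1.5-fold threshold, median centring, moderation with trend and robust on, only the arrays compared, the mean of probe sets, and leaving out each replicate number and each array.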

Additional observations from a re-analysis of the deposited data

Results flagged for a closer look

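Signals were found among probe sets that the comparison of named genes did not use. In a fit over all 28869 probe sets, 76 of the 7807 with no symbol listed were called between TGFβ-treated and untreated siPKCiz cells, 0.973% of them, 44 higher and 32 lower. Of the 1752 probe sets with several symbols 52 were called, 2.97% of them, 23 higher and 29 lower. In the same fit 5.43% of the probe sets that stood for the tested genes were called. Dixon's test of a single far value was not run on these groups of 3 arrays.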

How the results depend on the processing

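The 1191 genes called in siPKCiz cells became 1871 with array weights and 484 with a 1.5-fold threshold, the 575 higher became 875 and 250.0, and the 616 lower became 996 and 234. Leaving out each replicate number or each array gave 323 to 1123 called genes, 160.0 to 540.0 higher and 153 to 583 lower. The replicate number as a block gave 971 genes (470.0 higher). The labels state no pairing by number, and the values did not settle whether there was one. Deviations of same-numbered TGFβ and untreated siPKCiz arrays correlated at -0.0012, 0.095 and 0.21. In replicates 2 and 3 but not 1 each TGFβ array correlated best with its own number. The block together with leaving out a replicate number, chosen after seeing the data, gave 137, 142 and 1299 genes (without replicates 2, 3 and 1), 89, 77 and 613 higher, and 48, 65 and 686 lower. Genes that differed between the arms numbered 0, except 2 with only the arrays compared, 58 without replicate 1 and, with the replicate block, 85 without replicate 1. The other settings kept these counts over all genes within 1.5 times the main ones. Counts of called members within single lists moved further: 7 such counts moved by over 1.5 times with the replicate block, 9 with only the arrays compared, 3 with median centring, 2 with quantile normalization and 18 with array weights. Leaving a replicate number out of every group moved 18 such counts without number 1, 42 without number 2 and 45 without number 3. The 6 risers of the BMP list became 3 with the block and 3 with only the arrays compared, the 6 fallers of the NRF2 list 3 with the block, and the single fallers of the SMAD and keratin lists were lost with median centring.

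Of 128 named genes, 121 were called, and 79 of these stayed called without any 1 array. A 1.5-fold threshold ended 32 calls, the replicate block 7, leaving out replicate 2 ended 60 and replicate 3 ended 62. Signs turned for 2 genes, neither of them called. PRKCZ stood at -0.011 with array weights, -0.0091 without replicate 2 with and without the replicate block, -0.22 without TGFβ replicate 1, -0.13 without untreated replicate 2 and -0.035 without untreated replicate 3, with a highest value of 0.25 without untreated replicate 1. FN1 stood at 0.071 without replicate 2 and 0.0044 without replicate 3, both with and without the block, at 0.069 without TGFβ replicate 2 and at 0.013 without untreated replicate 3, with a lowest value of -0.11 without replicate 1. The median change of all genes was -0.0003 in the main fit, -0.0047 with quantile normalization, 0.0095 with median centring and -0.013 with the filter on dim genes. The share of higher among called genes was 48.3%, and 65.0% with the block and without replicate 2. The cause was not tested. Dim probe sets lie near background, where RMA intensity limits what can be seen.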
